A study of Mus musculus with 4 samples.

Results

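The genes described here are 8 transcription factors that mark position in embryonic connective tissue: the T-box genes Tbx2, Tbx3, Tbx15, Tbx18 and Tbx22 and the zinc-finger genes Zic1, Zic2 and Zic4. They were taken by symbol from the 32285 features of the deposited tables, and all 8 symbols were found. The genes were selected on their measured levels in these libraries, across cell classes and between genotypes, and the mural difference of Tbx18 was known when they were chosen. The adjusted p-values below therefore place each gene within its fit over all genes and are no independent support. Their UMIs (counted messenger RNA molecules) were read in 13739 of 15863 deposited cell barcodes, namely those showing 500 or more genes and no more than 10% of UMIs from mitochondrial transcripts. The cells came from mouse noses, taken whole at embryonic day 14.5 and profiled by 10x Genomics 3-prime single-cell RNA sequencing in 2 control and 2 mutant libraries. The mutants carried Sox10-Cre with floxed Yap and Taz (Wwtr1), the paired co-activators of the Hippo pathway: the labels give Tg(Sox10-cre)1Wdr, Yapflox and Tazflox on C57Bl/6J, and the series' design gives Yap flox/WT with Taz flox/flox, so that by the design 1 Yap allele stayed intact. The sources differ on the controls, which are C57Bl/6J in the labels and Cre-free Yap flox/flox;Taz flox/flox mice in the design. Sox10-Cre acts in the neural crest lineage, from which much of the nasal mesenchyme and many of its vessel-associated mural cells derive, while other cells of the nose lie outside that lineage.

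T-box proteins share a DNA-binding domain, and many act as repressors. Tbx2 and Tbx3 are close relatives known as repressors in the palate, limb and heart. Tbx15, Tbx18 and Tbx22 form a separate subfamily that recruits Groucho corepressors: Tbx18 is used as a mark of pericytes and vascular smooth muscle cells, Tbx15 acts in craniofacial and dermal mesenchyme, and mutations of TBX22 cause X-linked cleft palate. Zic proteins are relatives of the Gli factors of the Hedgehog pathway, and Zic genes are known from the dorsal neural tube, the forebrain midline and the meninges.

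In GENCODE M21 annotation of GRCm38 (mm10), Tbx2 lies at chr11:85832551-85841948, Tbx3 at chr5:119670669-119684724, Tbx15 at chr3:99240381-99354259, Tbx22 at chrX:107667964-107688978 and Zic2 at chr14:122475435-122479852. Chromosome 9 holds the other three: Tbx18 (chr9:87702800-87731260, minus strand), Zic1 (chr9:91358058-91365810, minus strand) and Zic4 (chr9:91362413-91389348, plus strand). Zic1 and Zic4 overlap by 3398 bp on opposite strands, and Tbx18 ends 3.63 Mb before Zic1 starts. Tbx3 and Tbx15 are each overlapped by an antisense gene, Tbx3os1 and Gm43120. These libraries keep the strand of the RNA, but the strand setting of the counting is not given in the sources used here, so the values of partners that overlap are uncertain.

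The stretches upstream of Tbx18 and Zic1 are shown because both genes were lower together in mutant mural cells, as described below. They are from RefSeq on GRCm38.p6, 5′ to 3′ on the strand of the gene, chr9:87731261-87731510 for Tbx18 and chr9:91365811-91366018 for Zic1. Capitals would mark matches to the TEAD core GGAATG, by which YAP and TAZ reach DNA, the T-box core GGTGTGA and the Zic core CAGCAGG, searched on both strands.
Tbx18 upstream: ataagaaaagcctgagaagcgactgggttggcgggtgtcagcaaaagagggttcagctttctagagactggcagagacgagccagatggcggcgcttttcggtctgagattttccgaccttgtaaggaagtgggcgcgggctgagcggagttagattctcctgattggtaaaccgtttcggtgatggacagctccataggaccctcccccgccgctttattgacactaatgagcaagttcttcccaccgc
Zic1 upstream: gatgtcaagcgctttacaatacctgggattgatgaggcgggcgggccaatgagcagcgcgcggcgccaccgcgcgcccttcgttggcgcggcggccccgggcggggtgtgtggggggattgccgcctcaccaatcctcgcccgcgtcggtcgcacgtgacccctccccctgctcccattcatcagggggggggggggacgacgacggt
Neither printed stretch holds any of the 3 cores. The 42 bases of the Zic1 window that lie in an exon of a Zic1 transcript are not printed, and they hold 1 TEAD core on the gene strand, from 15 to 10 bases before the RefSeq start. The Zic4 window, which lies within the annotated Zic4 gene, is not printed and holds none of the 3 cores. The TEAD core occurs in 12.6% of the 32851 upstream windows of 250 bases, the T-box core in 3.33% and the Zic core in 8.44%. Tbx22 also matched a promoter entry, so that 4 of the 8 genes had one.

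The 4 libraries kept between 2474 and 4195 cells, with median depths from 5282 UMIs in mutant 2 to 8549 in mutant 1. Across all 4, 22 barcodes were shared by 2 libraries. Over all cells Yap1 was 65.0 and 65.2 CPM (UMIs per 1000000 UMIs summed) in the controls against 56.4 and 56.0 in the mutants, and Wwtr1 overlapped between the groups, at 118.4 and 145.1 against 122.6 and 131.9. Transcripts of a floxed gene can still be counted at their 3-prime end, so these levels do not measure recombination. Control 2 stood apart from control 1 for several of the 8 genes, and its values are given beside each result they touch. The labels name 2 noses of each genotype, so p-values from all 4 libraries rest on 2 libraries a group and concern these libraries. Fits that leave out a library have 1 in a group and measure no spread within it. edgeR draws each gene's spread partly from all genes tested, and wholly so in the interaction test described below.

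Cells were sorted into classes by how many marker genes of a type showed at least 1 UMI. Mural cells (pericytes and vascular smooth muscle) needed 4 of 9 markers, and 61, 33, 33 and 52 cells qualified in control 1, control 2, mutant 1 and mutant 2. Meninges-like cells needed 3 of 8 markers, and 61, 48, 7 and 26 cells qualified, shares of 1.50%, 1.94%, 0.234% and 0.620% of the kept cells. Other mesenchymal cells, which passed no such gate and showed at least 4 of 8 mesenchyme genes, numbered 2871, 1871, 2233 and 2987. At the edge of the mural gate 298 cells were 1 marker short and 52 were at the limit, and for the meninges-like gate these numbers were 501 and 79. All 9 mural markers were present in the mural cells of every library, and all 8 meningeal markers in the meninges-like cells of every library. Median depth was 9486 UMIs in mural, 9028 in meninges-like and 6437 in other mesenchymal cells.

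Each factor had its own distribution over the classes, and the account that follows is a description with no test. Levels are CPM of UMIs summed per library and are compared within a gene. They are given as mean ± SD over the libraries with at least 20 cells of the class (4, or 3 for meninges-like cells). The SD spans control and mutant libraries and so holds any difference between genotypes. Tbx2 was highest in mural cells, at 84.4 ± 22.1, followed by bone cells at 35.7 ± 18.0 and other mesenchymal cells at 25.9 ± 2.57. Bone cells overlapped both of these neighbours across libraries, though they lay below mural cells within every library. The skeletal muscle cells of the 1 library with enough of them were at 40.9. Tbx3 was 47.8 ± 11.3 in other mesenchymal cells, 30.1 ± 16.1 in mural cells and 26.9 ± 5.63 in cartilage cells. Other mesenchymal cells lay above mural and cartilage cells within every library, while the order of mural and cartilage cells varied. Tbx3 was 3.95 ± 3.90 in meninges-like cells. Tbx2 and Tbx3 were thus both low in meninges-like cells, where Tbx2 was 8.59 ± 5.23.

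Tbx15 was broad in mesenchyme, at 173.2 ± 62.2 in other mesenchymal, 142.6 ± 60.3 in mural, 87.6 ± 26.3 in meninges-like and 70.7 ± 17.5 in cartilage cells. Mural cells overlapped both neighbours in that order across libraries. Within every library they lay below other mesenchymal cells and above meninges-like cells. Tbx18 was highest in meninges-like cells at 207.7 ± 87.3 and then in mural cells at 117.2 ± 114.2, a pair that overlapped, with 31.2 ± 5.03 in other mesenchymal cells and at most 5.90 on average in each of the cartilage, bone, endothelial, epithelial, glial and macrophage classes. Tbx22 averaged at most 1.44 in each class but other mesenchymal cells, where it reached 3.85 ± 0.82. Those cells held 270 of its 291 UMIs, and meninges-like cells held none.

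All 3 Zic genes were highest in meninges-like cells, at 234.2 ± 94.8 for Zic1, 182.0 ± 9.60 for Zic2 and 82.8 ± 40.0 for Zic4. Their meninges-like levels lay above the mural ones without overlap for Zic1 and Zic2. For Zic4 the ranges over libraries overlapped, but within each library with enough cells the meninges-like level was higher. These Zic4 levels were 105.9, 105.8 and 36.7 CPM against 24.4, 58.2 and 0 in control 1, control 2 and mutant 2. In mural cells Zic1, Zic2 and Zic4 had means of 47.9 ± 50.0, 19.6 ± 19.9 and 20.7 ± 27.6, and in other mesenchymal cells 17.7 ± 11.8, 6.21 ± 4.33 and 4.89 ± 3.60. Cartilage cells overlapped other mesenchymal cells for each, at 17.5 ± 9.37, 12.2 ± 13.1 and 6.99 ± 4.29. Zic4 had no UMI in epithelial, glial or macrophage cells of any library. The meninges-like class made up 1.03% of cells and held 11.6% of all Tbx18 UMIs, 32.5% of Zic2 and 20.8% of Zic4 UMIs.

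**Figure D1:**
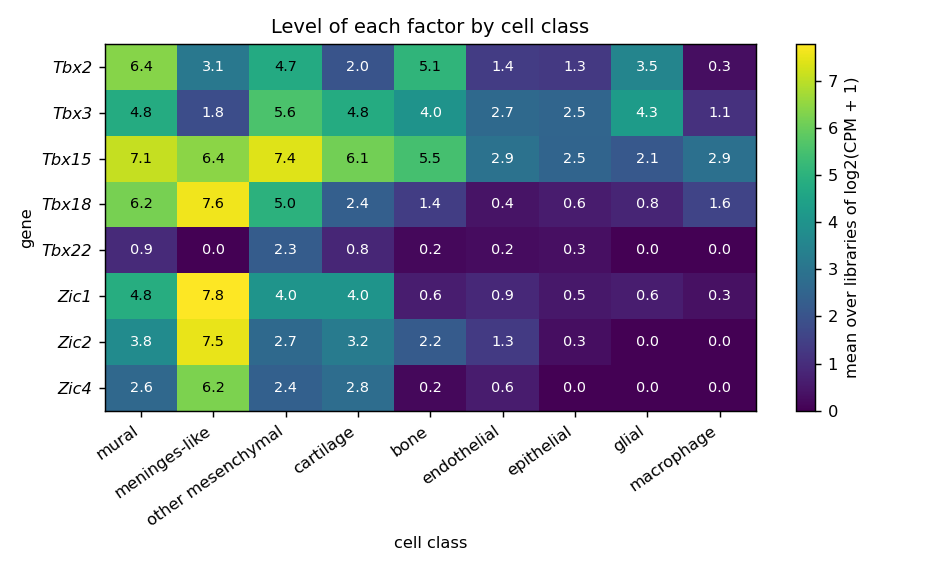
Mean over libraries of log2(CPM + 1) for the 8 genes (rows) in 9 cell classes (columns), using libraries with at least 20 cells of the class. Read along a row: Tbx2 peaks in mural cells, Tbx3, Tbx15 and Tbx22 in other mesenchymal cells, and Tbx18 and the 3 Zic genes in meninges-like cells.

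Detection in single cells was compared after each cell was thinned to 2000 UMIs. A Zic1 UMI was then found in 44.3% of meninges-like cells of control 1 (27 of 61, exact 95% interval 31.5 to 57.6%) and 38.3% of control 2 (18 of 47, 24.5 to 53.6%). In other mesenchymal cells of those libraries the shares were 2.31% and 4.85%. Without thinning these 4 shares were 85.2%, 87.5%, 5.85% and 11.8%. Macrophages, which should lack these genes, had a median of 8869.5 UMIs. Their shares were 0 in control 1, mutant 1 and mutant 2 for all 8 genes, and at most 1 of 55 cells in control 2. In control 1, 0 of 79 cells bounds the background at 3.80%, which is above the Zic1 share of its other mesenchymal cells. That bound does not cover control 2, whose macrophages held 19 Tbx15 UMIs without thinning (30.8 CPM). The intervals and limits cover counting error only.

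Within the other mesenchymal cells the factors were detected in partly different cells. Cells with a Zic1 UMI (617 cells) had a mean Zic4 level of 35.3 CPM against 1.57 in cells without one, and a Zic2 level of 38.2 against 2.74, both higher in 4 of 4 libraries. Tbx3 ran the other way, at 6.49 CPM in cells with Zic1 and 51.7 in cells without, lower in all 4 libraries. Tbx2 and Tbx3 went together, with Tbx3 at 96.8 CPM in the 1337 cells with a Tbx2 UMI and 39.6 in those without. Tbx22 joined that pair, at 7.01 CPM in cells with Tbx3 against 2.96. Tbx15 went with Tbx18, which was 45.1 CPM in cells with Tbx15 and 19.8 in cells without, and against Tbx22, at 0.792 and 6.49.

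Other position factors separated the same sets. Cells with Pax9, a factor of pharyngeal and palatal mesenchyme, had mean levels of 71.5 CPM of Tbx2, 110.1 of Tbx3 and 13.1 of Tbx22, against 19.8, 39.5 and 2.63 in cells without it, higher in all 4 libraries for each. In the same cells Tbx18 was 6.17 CPM against 34.8 and Zic1 was 1.43 against 19.7. Tbx18 was instead 72.8 CPM in cells with Foxd1 and 18.8 in cells without, and 87.7 against 27.2 in cells with and without Pou3f4. The Zic genes went with Lmx1b, where Zic1 was 78.6 CPM against 14.1 and Zic4 was 25.8 against 3.76, and with Msx2, where Zic1 was 53.9 against 15.0. Cells with Pax3, a factor of frontonasal neural crest mesenchyme, had Zic1 at 2.63 CPM against 26.6. These contrasts compare cells within libraries and carry no test. Cells of a library share its free RNA, and deeper cells more often show a UMI of either gene.

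**Figure D2:**
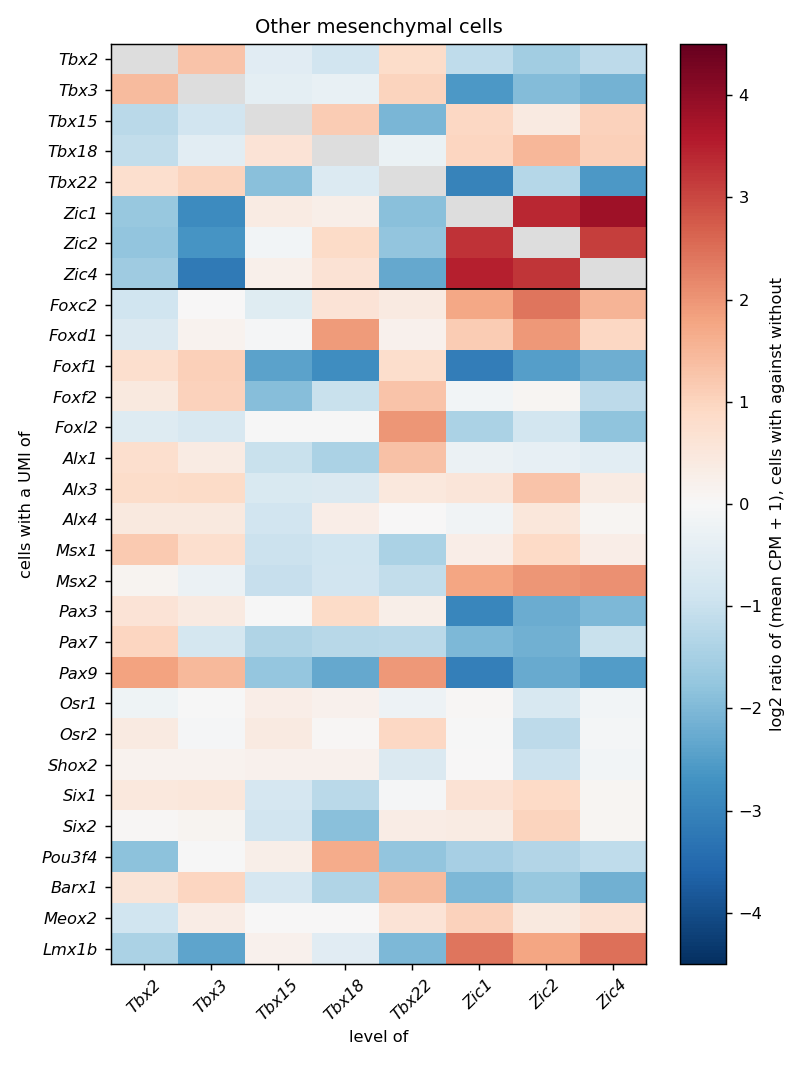
Other mesenchymal cells of the 4 libraries: colour gives the log2 ratio of (mean CPM + 1) of each of the 8 genes (columns) in cells with a UMI of the gene of the row against cells without, with a line below the 8 genes themselves. The 3 Zic genes form a red block, Pax9 is red for Tbx2, Tbx3 and Tbx22 and blue for the rest, and Foxd1 and Pou3f4 are red for Tbx18.

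The genes most like each factor were named by Pearson correlation of log2(CPM + 1) over 32 sums, among 12306 genes. The sums came from 8 classes in each of 4 libraries: mural, other mesenchymal, cartilage, bone, endothelial, epithelial, glial and macrophage. Meninges-like cells, of which mutant 1 held 7, were not among them. The likeness of Tbx18, Zic1, Zic2 and Zic4 therefore leaves out the class where their mean level was highest. The points share libraries and depth, and no p is given. Tbx2 was most like Vstm4 (r = 0.89), Gucy1a1 and Ctnna3, and Tbx3 most like the microfibril genes Mfap2 (0.91) and Fbn2 and Zfp580. Tbx15 was most like Twist1 (0.91), a mesenchymal transcription factor, Flnc and Svep1. Tbx18 was most like the endothelin receptor Ednra (0.83), Adra2a and 4933431K23Rik, and Tbx22 like Col6a6 (0.91), Wnt2 and Dio3. Foxd1 was among the 3 for Zic1, Zic2 and Zic4 (0.82, 0.81 and 0.79). Zic2 was closest to Zic5 (0.91), whose locus lies 9757 bp away. Among the 8 genes themselves, the closest pair was Zic1 and Zic4 (0.87).

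The comparison of mutant with control libraries asks how these levels differ where Yap and Taz were targeted in the neural crest. The genes were chosen with earlier results of this comparison known, so the counts below are a description. Over all kept cells, the 3 Zic genes were lower in both mutants. Zic1 was 16.6 and 38.2 CPM in control 1 and control 2 and 7.45 and 10.3 in mutant 1 and mutant 2. Zic2 was 7.42 and 16.9 against 1.92 and 5.84, and Zic4 was 6.17 and 14.3 against 2.44 and 3.13. Control 2 was the highest library for each, and the gap between the controls was wider than that between the mutants.

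Tbx3 was higher in both mutants, at 46.3 and 37.2 CPM against 27.0 and 28.5, and so was Tbx2, at 22.3 and 22.7 against 18.9 and 19.98. Tbx15, Tbx18 and Tbx22 overlapped between the groups. In these summed libraries fewer cells of a type and less RNA per cell cannot be told apart. Of all genes tested, 13% were lower in both mutants than in both controls and 24.9% higher. The edgeR quasi-likelihood test, adjusted over 18080 genes, called 0 genes, with 883 at an unadjusted p under 0.05 and 30 called by DESeq2. Zic1 changed by -1.66 ± 0.42 (log2, SE; adjusted p 0.909), Zic4 by -1.91 ± 0.43 (0.909) and Tbx3 by 0.55 ± 0.13 (0.909). DESeq2 called Zic4 (adjusted p 0.0123). Without control 1, the changes of Zic1, Zic4 and Tbx15 were -2.16, -2.41 and -0.97. Without control 2 they were -0.93, -1.18 and 0.27.

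In mural cells Tbx18 and Zic1 fell in the mutants, and Zic4 was not detected there. Tbx18 was 154.4 and 262.1 CPM in the controls (95 and 90 UMIs) and 17.3 and 35.1 in the mutants (7 and 17 UMIs). Zic1 was 60.1 and 113.6 CPM against 7.42 and 10.3, and Zic4 was 24.4 and 58.2 against 0 and 0. For all 3 genes both mutants lay below both controls. Over the group sums, Tbx18 was 7.15-fold lower in mutants (95% counting interval 4.66 to 11.4) and Zic1 was 8.81-fold lower (4.25 to 21.1). For Zic4 the control level was 10.8-fold above a floor of 3 counts over the mutant group. That ratio leaves out the counting error of the controls and is no bound. In edgeR's quasi-likelihood test over 6781 genes Tbx18 changed by -2.96 ± 0.36 (adjusted p 6.58e-04), Zic1 by -3.21 ± 0.48 (adjusted p 0.00292), and Zic4 had an adjusted p of 0.0118. This fit called 86 genes, 1.27% of those tested, 38 higher (0.56%) and 48 lower (0.708%).

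Zic2 was also lower in both mutants but did not pass the test. It was 22.8 and 46.6 CPM in the mural cells of the controls and 4.95 and 4.13 in those of the mutants, on 14, 16, 2 and 2 UMIs (-2.83 ± 0.69, adjusted p 0.0597). It passed with every gate raised by 1 marker, mural cells then needing 5 (-3.70, adjusted p 0.0412). It also passed with no filter on low counts (0.00202), a fit that took the spread from all genes tested. Tbx15 was 125.1 and 230.1 CPM against 91.5 and 123.8, so that both mutants lay below both controls by little beside the gap between the controls (-0.71 ± 0.29, adjusted p 0.368). Tbx3 went the other way, at 24.4 and 11.6 CPM against 49.5 and 35.1 (1.05 ± 0.46, adjusted p 0.408). Tbx2 was alike in 3 libraries, at 91.0, 96.1 and 98.9 CPM, with 51.6 in mutant 2 (-0.38 ± 0.32, adjusted p 0.770). Tbx22, with 3 UMIs in mural cells of all libraries, did not pass the low-count filter and was not tested. Zic1, Zic2 and Zic4, with at most 5 UMIs in each mutant library, passed that filter through the controls. Tbx18, with 7 and 17 UMIs in the mutants, would not have passed on the mutants alone. Tbx3, with 15 and 4 UMIs in the controls, would not have passed on the controls alone. The direction of the difference of these 5 genes is thus partly fixed by the filter. Of all genes tested, 17.5% were lower in both mutants and 22.5% higher.

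After thinning to 2000 UMIs, a Tbx18 UMI was found in 13 of 61 mural cells of control 1 (21.3%) and 13 of 33 of control 2 (39.4%), against 0 of 32 in mutant 1, which allows a share of up to 9.38%, and 4 of 52 in mutant 2 (7.69%, exact 95% interval 2.14 to 18.5%). For Zic1 the shares were 13.1% and 21.2% in the controls, 0 in mutant 1 and 5.77% in mutant 2. Without thinning the mutant mean for Tbx18 lay 45.8 percentage points below the control mean, against 26.5 after it.

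**Figure D3:**
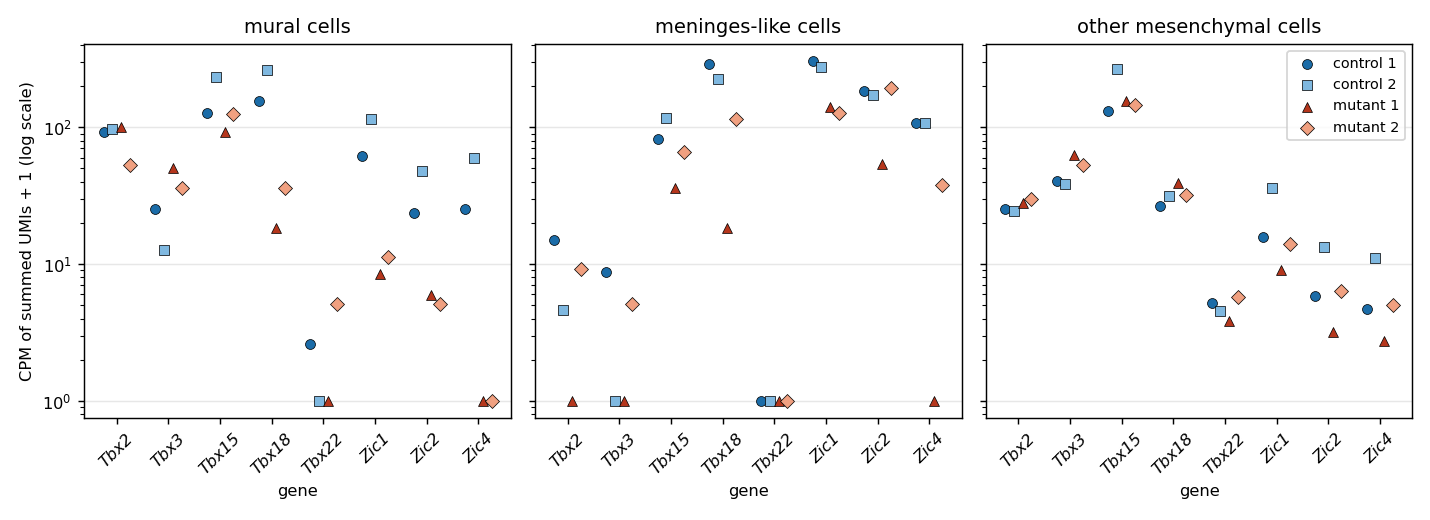
CPM of summed UMIs plus 1 (log scale) of the 8 genes in mural, meninges-like and other mesenchymal cells, 1 point per library; a point at 1 is a level of 0. In mural cells the mutant triangles and diamonds lie below the controls for Tbx18, Zic1, Zic2 and Zic4, and in meninges-like cells the mutant 1 point rests on 7 cells.

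Levels of marker genes in the mural class differed between the groups too. The 9 mural markers summed to 3067 and 3107 CPM in the controls and 2427 and 2339 in the mutants, and the lowest adjusted p among them was that of Rgs5 (-0.79 ± 0.19, edgeR adjusted p 0.0554). Contractile genes (Acta2, Tagln, Myh11, Cnn1 and Myl9) summed to 2493 and 1299 CPM in the controls and 3700 and 3538 in the mutants, and of the 4 tested Tagln rose by 0.91 ± 0.21 (edgeR adjusted p 0.0476). Fabp7, a marker of glial cells, fell by 2.33 on the log2 scale (adjusted p 0.0177). The 8 meningeal markers summed to 82.9 and 93.2 CPM against 155.8 and 97.0, and Slc6a13, Slc22a6, Ptgds and Gjb6 were at 0 in all 4 libraries. The lower Tbx18 levels were present on either side of a split by contractile genes. In mural cells with at most 1 contractile gene Tbx18 was 206.7 and 307.8 CPM in the controls and 9.36 and 41.8 in the mutants (8 and 18 cells). These mutant values rest on 1 and 6 UMIs, and that of mutant 1 lies below its floor of 28.1 CPM. With 2 or more contractile genes Tbx18 was 127.7 and 230.8 CPM against 20.2 and 32.3 (6 and 11 UMIs in the mutants). The part of the contractile genes and Fabp7 in the Tbx18 and Zic results was not tested further.

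The calls depended on where the gates were set. An alternative lowered every gate by 1 marker at once, the mural gate from 4 to 3. Tbx18 then changed by -1.86 and Zic1 by -2.26, both with an edgeR adjusted p of 0.0742. Zic4 had an adjusted p of 0.117, and the count of called genes was 7. The Zic4 call was also lost without control 2 (adjusted p 0.277), with the replicate number as a block (0.0780), and when cells that also passed a meninges-like, cartilage or bone gate were kept (0.0866). Those added cells numbered 0, 1, 2 and 3 in the 4 libraries, and with them Zic4 was 8.77 CPM in mutant 2.

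Of the 24 other position factors in the list, 12 were tested in mural cells. Foxd1, which is known from kidney stroma and retina and went with Tbx18 in other mesenchymal cells, fell by 3.22 on the log2 scale (SE 0.40, adjusted p 6.64e-04). Barx1, a factor of jaw mesenchyme, rose by 2.54 ± 0.47 (adjusted p 0.0138), and the other 10 did not pass. The list's median change was 0.44 against a median of -0.0013 over all genes tested. None of the 5 tested Gli and Glis relatives of Zic, the 4 tested Groucho corepressors or Mga, the tested member of 12 other T-box genes, passed in edgeR, and the lowest unadjusted p among these 10 was 0.320, for Tle4.

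Meninges-like cells were fewer in the mutants, and mutant 1 held 7 of them, too few for the test, which required 20. Their values are given as they stand. Zic1 was 303.8 and 272.7 CPM in the controls and 139.8 and 126.2 in the mutants, and Tbx18 was 286.7 and 222.5 against 17.5 and 114.0. Zic4 was 105.9 and 105.8 CPM against 0 and 36.7, and Zic2 was 182.3 and 172.2 against 52.4 and 191.4. Tbx15 was 81.0 and 116.6 CPM against 34.96 and 65.2. Both mutants lay below both controls for Zic1, Zic4, Tbx18 and Tbx15, while Zic2 overlapped. Tbx2 (14.0 and 3.59 CPM against 0 and 8.15) and Tbx3 (7.79 and 0 against 0 and 4.07) overlapped on at most 9 UMIs a library, and Tbx22 had none. The mutant 1 values rest on 8 UMIs of Zic1, 1 of Tbx18 and 0 of Zic4. Of the 6554 genes with enough counts, 20.4% were lower in both mutants and 16.6% higher. The 8 meningeal markers, at least 3 of which the gate requires, summed to 1142 and 866.5 CPM for control 1 and control 2 against 1381 and 1450 for the mutants, with Ptgds at 42.1 and 55.6 against 227.2 and 399.1.

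With every gate lowered by 1 marker, meninges-like cells needed 2 markers. They then numbered 129, 109, 66 and 78 and could be tested. The gate of 3 markers had given 61, 48, 7 and 26, so the mix of earlier and newly admitted cells could differ between libraries. Its part in the differences was not tested. Tbx18 was then 147.5 and 175.4 CPM against 8.55 and 61.4 (edgeR -2.27 ± 0.51, adjusted p 0.186) and Zic1 was 150.1 and 224.4 against 32.8 and 78.0 (-1.79 ± 0.35, adjusted p 0.107). Zic4 was 54.9 and 65.3 CPM against 0 and 23.2 (-2.46 ± 0.67, adjusted p 0.343). Both mutants lay below both controls for these 3 genes. Tbx2 was higher in both mutants, at 37.0 and 23.2 CPM against 18.0 and 11.2 (1.02 ± 0.40, adjusted p 0.578). Tbx3, Tbx15 and Zic2 overlapped, with changes of 1.42 ± 0.57, -0.23 ± 0.28 and -1.03 ± 0.53 (adjusted p 0.590, 0.928 and 0.703), and Tbx22 was not tested. None of the 7 tested passed in edgeR, with 5 at an unadjusted p under 0.05. Among all 9143 genes tested, 717 were at an unadjusted p under 0.05. Of all genes tested, 17.8% were lower in both mutants and 19.8% higher. This fit called 15 of 9143 genes, 0.164%.

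In other mesenchymal cells none of the 8 genes passed the test. Zic1 was 14.7 and 34.9 CPM in the controls and 8.08 and 13.1 in the mutants, and its change was -1.26 ± 0.39 (edgeR adjusted p 0.600). Zic2 and Zic4 overlapped between the groups, at 4.85 and 12.4 against 2.198 and 5.42 CPM for Zic2 and 3.72 and 10.1 against 1.74 and 4.05 for Zic4. Control 2 was the highest library for each. Tbx18 was slightly higher in both mutants, at 37.9 and 30.8 CPM against 25.7 and 30.5, and its change was 0.26 ± 0.14 (adjusted p 0.720).

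Tbx3 was 61.8 and 52.2 CPM in mutant other mesenchymal cells against 39.7 and 37.5 in controls (0.52 ± 0.11, unadjusted p 0.00201, edgeR adjusted p 0.408), with both mutants above both controls. Tbx2 was 27.1 and 29.0 CPM against 24.2 and 23.5 (adjusted p 0.719), again with no overlap. Tbx15 was 129.7 and 265.2 CPM against 153.6 and 144.1, with control 2 alone high, and Tbx22 stayed between 2.86 and 4.76. With no filter on low counts edgeR called Zic1, Zic2, Zic4, Tbx3 and Tbx15 in these cells (adjusted p 1.25e-13, 1.69e-05, 3.59e-05, 9.01e-04 and 0.0133), among 505 genes. That fit took the spread from all genes tested, so the gap between the controls in these genes did not count. The Zic1 change was -1.25 ± 0.15 in it, against -1.26 ± 0.39 with the filter. With the filter no gene of 15993 passed, against 1160 at an unadjusted p under 0.05 and 37 called by DESeq2. Of the genes tested, 14.2% were lower in both mutants and 26.2% higher. Without control 1, the changes of Zic1, Zic2, Zic4, Tbx15 and Tbx3 in these cells were -1.78, -1.77, -1.87, -0.88 and 0.56. Without control 2 they were -0.52, -0.41, -0.42, 0.16 and 0.49 in the same order.

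**Figure D4:**
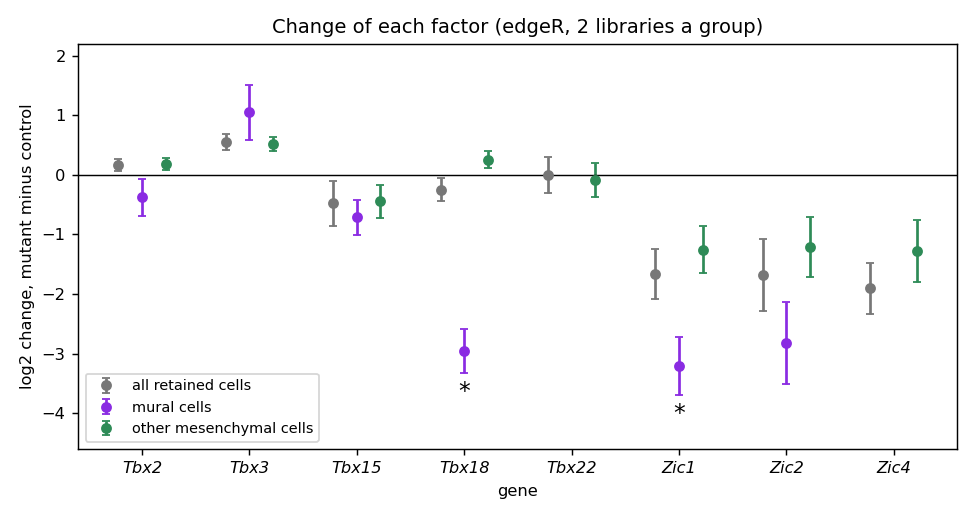
edgeR log2 change of each gene, mutant minus control, with its standard error, in all retained, mural and other mesenchymal cells; a star marks an adjusted p under 0.05. Tbx18 and Zic1 are starred in mural cells; Zic4 is left out there because its mutant counts were 0, and Tbx22 because it was not tested.

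Whether the mural change differed from that in other mesenchymal cells was tested directly, as an interaction over both classes in each library. For Tbx18 the mural change minus the other was -3.19 ± 0.34 (log2, edgeR adjusted p 9.94e-18), with the gene lower in both mutants in mural cells and slightly higher in both in the others. Zic1 differed by -2.13 ± 0.57 (adjusted p 0.0168), and Zic4 had an adjusted p of 0.0164. Zic2, Tbx15, Tbx2 and Tbx3 did not pass this test (adjusted p 0.645, 0.834, 0.738 and 0.898). The interaction called 222 of 15016 genes, 1.48%, 138 of them higher (0.919%) and 84 lower (0.559%). Its p-values take the spread from all genes tested, so they do not measure how far a gene's own libraries differ. The Tbx18 difference passed under every alternative run, with adjusted p-values of at most 0.00113. The Zic1 and Zic4 differences did not pass without mutant 1 (adjusted p 0.118 and 0.116), without mutant 2 (0.512 and 0.675) or with 1 marker fewer (0.289 and 0.497) or with the cells past a further gate kept (0.127 and 0.490), Zic1 did not without control 1 (0.0670) and Zic4 did not without control 2 (0.0829).

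Foxd1 differed between the classes in the direction of Tbx18 (-3.26 ± 0.41, edgeR adjusted p 6.62e-12) and Barx1 in the opposite one (2.63 ± 0.35, adjusted p 5.58e-11). Among the mural and contractile markers Rgs5 (-2.37), Ndufa4l2 (-0.85), Acta2 (1.42) and Tagln (1.18) also differed, as did the meningeal marker Aldh1a2 (1.49), the neuronal marker Stmn2 (2.65) and the mesenchyme genes Col1a1 (1.18) and Col1a2 (0.67), and their part in the Tbx18 and Zic differences was not tested. Zic5 was not past the filter in mural cells. Its change was -1.14 ± 0.46 in other mesenchymal cells (edgeR adjusted p 0.667) and -1.72 ± 0.47 over all cells (adjusted p 0.909).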

How the data were processed

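The deposited values were raw UMI counts per gene and cell barcode from 10x Genomics 3-prime v3.1 libraries, per the labels' protocols. The matrices name Cell Ranger 8.0.1, per the file headers, whereas the submitters' processing notes name Cell Ranger 4, Seurat 4.3.0 and mm10. The labels do not say which libraries each of the sequencing providers handled, so that no batch could be tested. The protocols mention 1 more sample than the 4 used; it was not analysed here.

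The cell filter was 500 genes or more and 10% mitochondrial UMIs or less, and no doublets were removed. The classes were gates on marker genes with at least 1 UMI: mural 4, meninges-like 3, cartilage 4, bone 3, endothelial, epithelial, glial and macrophage 3, neuronal 4. The limits were set after the numbers of markers per cell were seen. In the alternatives with 1 marker more or fewer, the limits of all gates and of the mesenchyme genes moved together. Cells past more than 1 gate (164) were left out of the classes, and 739 passed none. Summing the counts of each class within each library gave the values tested by edgeR 4.0.16 (TMM, filterByExpr, quasi-likelihood; Benjamini-Hochberg over all genes tested, threshold 0.05) in R 4.3.3, with at least 20 cells in every library. The interaction fit had library and class as terms. DESeq2 1.42.0 was an alternative. The script was tested on simulated data. Shares were computed after thinning to 2000 UMIs, leaving out shallower cells, with exact Clopper-Pearson intervals. Of the 32285 features, 32158 matched GENCODE M21 by identifier. The 8 genes and all lists were chosen with earlier results of these data known. The rule for named genes was all 8 in the mural, meninges-like and other mesenchymal comparisons; further genes are the 3 most alike per factor and the list and marker genes that passed a test.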

Additional observations from a re-analysis of the deposited data

Results flagged for a closer look

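For 3 of the 8 genes the change between mutant and control libraries differed between mural and other mesenchymal cells by the interaction test itself, which called 1.48% of all genes tested. The difference was -3.19 on the log2 scale for Tbx18 and -2.13 for Zic1, and for Zic4, whose fitted size is no bound because both mutants had 0 UMIs in mural cells, it had an edgeR adjusted p of 0.0164. The Zic1 and Zic4 calls were lost without mutant 1 (adjusted p 0.118 and 0.116), without mutant 2 (0.512 and 0.675), with 1 marker fewer (0.289 and 0.497) and with cells past a further gate kept (0.127 and 0.490), Zic1 also without control 1 (0.0670) and Zic4 without control 2 (0.0829). With all 4 libraries each difference rests on 2 libraries a group and on a spread taken from all genes tested. The mural fall of Tbx18 was known when the genes were chosen. In the same mural cells the contractile genes summed to 3700 and 3538 CPM in the mutants against 2493 and 1299 in the controls, and their part in these differences was not tested.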

How the results depend on the processing

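Of 341 values of single genes under the alternatives, 295 kept their direction and their side of the threshold. With no filter on low counts, the mural and other mesenchymal fits took the spread from all genes tested, not from each gene's own libraries. The count of genes called in all retained cells (0) was 10 with no filter on low counts, 30 with DESeq2, and 0 to 410 leaving out 1 library. In mural cells (86) it was 240 with no filter, 30 with DESeq2, 47 with the stricter cell filter, 139 with 1 marker more and 7 with 1 marker fewer, and 70 to 312 leaving out 1 library. In other mesenchymal cells (0) it was 505 with no filter, 37 with DESeq2, and 0 to 808 leaving out 1 library. For the interaction (222) it was 54 with 1 marker fewer and 75 to 257 leaving out 1 library.

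With the replicate number as a block the counts were 0, 23 and 27 in all retained, mural and other mesenchymal cells; the numbers share no source, and deviations of same-numbered libraries correlated at -0.035, 0.0329 and -0.0152 across genes. Under the block Zic4 in mural cells lost its call (adjusted p 0.0780) and Zic1 in other mesenchymal cells gained one (0.0332); no other gene of the 8 changed its call. Keeping mural cells past a further gate was an alternative chosen after seeing the data. So was a fit of mural cells with at most 1 contractile gene, which was not run because mutant 1 had 8 such cells.

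Direction reversed for Tbx22 in all retained cells with the block (-0.038), the stricter filter (-0.0018), without the top Scrublet scores (-0.048) and across left-out libraries (-0.38 to 0.32). Leaving out libraries also gave both signs for Tbx15 and Tbx18 in all retained cells (-0.97 to 0.27 and -0.49 to 0.035), Tbx2 in mural cells (-0.93 to 0.048) and Tbx22 and Tbx15 in other mesenchymal cells (-0.48 to 0.23 and -0.88 to 0.16). The mural interaction of Tbx3 was -0.13 with 1 marker fewer. None of these changes was called in the main fits of all 4 libraries. Tbx15 in other mesenchymal cells was called with no filter on low counts (edgeR adjusted p 0.0133). The causes were not tested. Mural cells of 33 to 61 a library limit the precision, and no test of meninges-like cells at 3 markers was run, nor any of its alternatives apart from 1 marker fewer. Zic4 in mural cells did not pass the low-count filter under the stricter cell filter or without the top Scrublet scores.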

Other observations

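Part of the Zic signal lay outside every gate. The 739 cells that passed no gate held 20.6% of all Zic4 UMIs, 44 and 59 in control 1 and control 2 and 31 and 1 in mutant 1 and mutant 2. Almost all of these, 125 of 135, were in 32 cells with at least 2 Zic4 UMIs, of which 11, 14, 7 and 0 came from the 4 libraries in that order. In those cells Zic1 was 380.7 CPM and Zic2 153.0, against 10.1 and 4.67 in the other cells outside the gates, while Tbx18 and Tbx15 each had a UMI in 1 of the 32 cells. Col1a2, a collagen gene of mesenchyme, was 46.3 CPM against 434.8.

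The genes highest in these cells by fold, among those found in at least 16 of the 32 and chosen after the values were seen, included the long noncoding RNAs Rmst (1740 CPM against 36.7), Otx2os1 (715.2 against 21.9) and Sox2ot (843.3 against 46.7), together with Trpm3, Erbb4, Igfbpl1 and Zic5. Otx2os1 and Sox2ot are transcribed beside or around Otx2 and Sox2, transcription factors of the neural and sensory epithelium. Ttr, which encodes the thyroxine carrier transthyretin, was 7437 CPM against 154.9 and was found in 7 of the 32 cells. These cells enter the sums over all kept cells and none of the mural, meninges-like or other mesenchymal values.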
